A study of Mus musculus with 9 samples.

Results

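Genes that the mouse annotation knows only by a Gm number are loci that gene prediction or manual annotation found before anyone gave them a name. In the FPKM table of this kidney study 24941 of 52405 rows carry such a name, and 15381 of those were listed at 0 in all 9 libraries. The genes described here are the 160 rows named Gm followed only by digits whose mean over the 9 FPKM columns was at least 10, which is 0.642% of the Gm-numbered rows. They were chosen by their level in these libraries, so the levels are given as a description with no test, and 6226 rows of any name reached the same mean. FPKM is the number of sequenced fragments scaled to the length of the transcript and to the depth of the library.

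The study compared 3 groups of C57BL/6 mice, each with 3 libraries. Sham-operated adult males are called M. Females were either sham-operated (D21-s) or ovariectomized (D21-ovx) at postnatal day 21, which removes the ovarian source of sex hormones before puberty. The kidney cortex of every group was dissociated and cells bearing prominin-1, a surface protein of the proximal tubule, were held back on a magnetic column with an antibody. The sources used here do not give the male day of surgery, the age at collection or whether kidneys were pooled, and M against D21-s differs by sex together with anything else that differed between these 2 sets of animals.

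A Gm number covers several kinds of locus. Processed pseudogenes are DNA copies of messenger RNAs that were reverse transcribed and inserted elsewhere, and most carry no promoter of their own. Nuclear mitochondrial copies are pieces of mitochondrial DNA inserted in a chromosome. Other Gm genes are antisense or intergenic non-coding RNAs, read-through transcripts that join exons of a named gene, or duplicated protein-coding genes. Where a copy is nearly identical to its parent, a short read fits both places. RSEM, which the authors used, divides such reads between the places by an estimate, so the FPKM of a copy is partly an inference from sequence and not a count of reads that belong to it alone.

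By the GENCODE M21 annotation, which holds all 160 gene IDs, 86 are processed pseudogenes, 25 protein coding, 17 antisense RNAs and 11 lincRNAs. The rest are 6 unprocessed pseudogenes, 6 transcribed processed pseudogenes, 4 of the TEC class, which awaits experimental evidence, 2 snoRNAs, and 1 each of miRNA, processed transcript and transcribed unprocessed pseudogene. A single exon made up 115 of them. The longest transcripts per gene ran from 83 to 5288 bases with a median of 492 bases, and 33 were shorter than 300 bases. A search of each transcript against all others found that 140 had a relative outside the Gm names at 90% identity or more over at least 50% of the length. Matches on both strands and at the same locus were accepted. For some genes the relative is therefore the gene whose exons they share or lie opposite to, and not a copy elsewhere.

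The alignments below show how little separates some of these genes from a named relative. Each stretch has 60 bases, is written 5′ to 3′ from the GENCODE M21 transcripts, lies in the coding part of the named relative, and has capitals where the aligned sequences differ. The first set is Gm10639 with Gsta2 and Gsta1, which encode alpha-class glutathione transferases, all on chromosome 9. Over the 666 bases of its coding part Gm10639 differed from Gsta2 at 10 bases and from Gsta1 at 17.
Gm10639: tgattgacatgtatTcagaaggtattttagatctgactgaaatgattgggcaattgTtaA
Gsta2: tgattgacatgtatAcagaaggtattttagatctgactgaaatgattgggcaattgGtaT
Gsta1: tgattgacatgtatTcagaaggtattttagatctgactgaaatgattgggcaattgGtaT
The second set, on chromosome 3, is Gm4450 with Hsd3b4, a steroid dehydrogenase and isomerase family gene, and Gm10681. Gm4450 differed from Hsd3b4 at 4 of 1119 coding bases, while Gm10681 was 100% identical to Hsd3b4 over its whole transcript.
Gm4450: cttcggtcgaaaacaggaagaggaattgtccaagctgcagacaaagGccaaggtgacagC
Hsd3b4: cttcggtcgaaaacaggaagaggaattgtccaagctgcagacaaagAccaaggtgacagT
Gm10681: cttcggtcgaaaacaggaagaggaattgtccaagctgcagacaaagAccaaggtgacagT
The third pair is Gm48931, a processed pseudogene on chromosome 14, and Acy3 on chromosome 19, which encodes an aminoacylase that acts on mercapturic acids. They differed at 1 of 226 aligned bases.
Gm48931: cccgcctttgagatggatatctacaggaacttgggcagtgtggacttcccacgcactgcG
Acy3: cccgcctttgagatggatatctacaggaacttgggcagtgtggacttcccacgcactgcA
The last pair is Gm28438, a nuclear copy on chromosome 1, and mt-Nd3, a mitochondrial gene for a subunit of respiratory complex I. They differed at 1 of 345 bases.
Gm28438: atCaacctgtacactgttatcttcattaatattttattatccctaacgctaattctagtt
mt-Nd3: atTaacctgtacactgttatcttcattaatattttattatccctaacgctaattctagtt

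The 160 genes fell into 5 annotation classes. Copies of mitochondrial genes numbered 6, and 104 had a near-identical relative elsewhere in the genome. Another 13 shared at least 50% of their exonic bases with a gene on the same strand. Exons of 24 overlapped exons of a gene on the opposite strand, and 13 fitted none of these descriptions. A mean of at least 1000 FPKM was reached by 6 genes, 15 lay from 100 to 1000 FPKM, 67 from 20 to 100 FPKM and 72 from 10 to 20 FPKM.

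**Figure D1:**
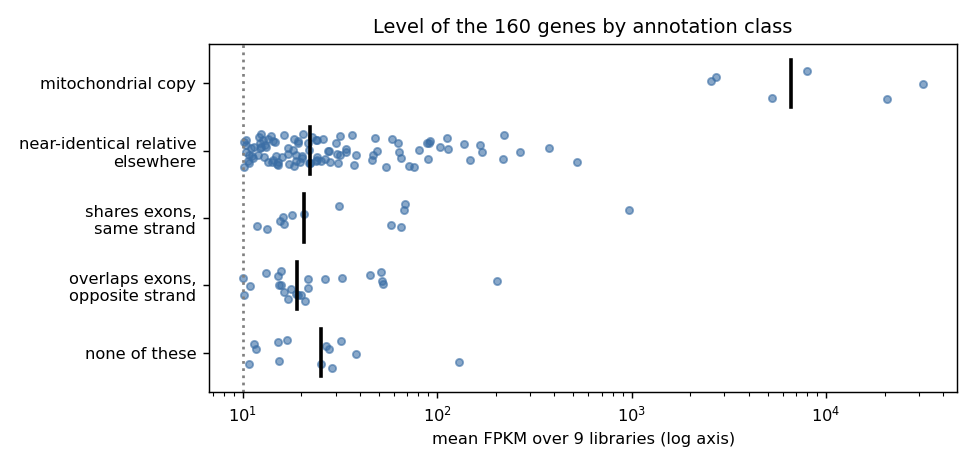
Mean FPKM over 9 libraries (log axis) of each of the 160 Gm-numbered genes, 1 point a gene, by annotation class; the black bar is the class median and the dotted line is the level of 10 FPKM used to choose the genes. The 6 mitochondrial copies lie above all others, from 2566 to 31694 FPKM, while the medians of the other classes lie between 18.9 and 25.3 FPKM.

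The lowest genes that were kept were Gm10182 at 10.1, Gm5616 at 10.1 and Gm20659 at 10.0 FPKM. Just under the threshold were Gm10557 at 9.96, Gm15217 at 9.77 and Gm38316 at 9.55 FPKM. The values of single libraries on both sides of the threshold overlapped, with 5.89 to 16.44 FPKM for Gm10182 and 6.87 to 14.02 FPKM for Gm10557. In 19 of the 160 genes the mean of at least 1 group was under 10 FPKM, so these were kept through the groups in which they were higher.

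The files gave FPKM sums of 693451 to 734990 per library. Steps in the values of short genes with low FPKM gave the estimated depth of a library (21.25 to 28.75, in units of 1e+06 fragments), with 64.8% to 71.6% of those values on a step against 10.8% to 14.5% by chance, so counts were not recovered for every gene. The labels and sex-linked genes matched: Xist was at most 0.04 FPKM in M and at least 32.68 FPKM in the females, and Ddx3y was at least 13.11 FPKM in M and listed at 0 in the females. Prom1, the sorted protein, was 39.4 to 54.59 FPKM in M, 76.84 to 128.66 FPKM in D21-s and 68.51 to 78.52 FPKM in D21-ovx. All 10 proximal tubule markers were detected, with summed levels of 6922 to 7829 FPKM in M, 8830 to 9916 FPKM in D21-s and 9749 to 10744 FPKM in D21-ovx. Markers of other nephron segments were present too, with thick ascending limb sums of 971 to 1638 FPKM in M, 575 to 1008 FPKM in D21-s and 735 to 1066 FPKM in D21-ovx, and 1 of these 3 markers fell in D21-s against M. Fewer cells of a type and less RNA per cell cannot be told apart in such bulk libraries.

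The 160 genes together took 10.5% to 12% of the FPKM sum of a library. The mitochondrial copies alone took 9.37% to 11%, which was 89.5% to 91.2% of what all 160 held, and the other 154 genes took 1.02% to 1.1%. The genes encoded in the mitochondrial DNA itself, whose symbols start with mt-, took another 24.6% to 27.3%.

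All 6 mitochondrial copies lie side by side on the minus strand of chromosome 1, at chr1:24611535-24616197 of GRCm38. Gm10925, a copy of the ATP synthase subunit gene mt-Atp6, had the highest level of the 160 genes. Its FPKM was 31752, 30802 and 30725 in M, 33660, 35493 and 30995 in D21-s, and 30062, 30341 and 31419 in D21-ovx. The copy is 100% identical to mt-Atp6 over all of its 678 bases, and mt-Atp6 itself was listed at only 5847 to 10205 FPKM, so the copy held 75.1% to 84.7% of the sum of both. Their sum ranged from 37495 to 41901 FPKM over the 9 libraries.

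The split between copy and mitochondrial gene differed from pair to pair. Gm28437, identical to the cytochrome oxidase gene mt-Co3, held 53.2% to 75.5% of the summed FPKM. Gm28438 held 65.1% to 81.6% of its sum with mt-Nd3. The shares were smaller for Gm29216 with mt-Co1, at 17.2% to 23.7%, and for Gm10222 with mt-Nd4l, at 17.6% to 41.3%. Gm28439, a copy of mt-Nd4, had the lowest share, at 7.15% to 23.0%. In these pairs the higher share went to the copy for mt-Atp6, mt-Co3 and mt-Nd3 in every library and to the mitochondrial gene for the other 3 pairs.

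Libraries of the same group also split these pairs differently. Gm28439 was 960.8, 2807 and 4031 FPKM in the 3 M libraries, and Gm10222 was 1519, 1896 and 4427 FPKM in the same libraries. In both genes the M libraries spanned the range of both female groups. The median coefficient of variation (CV, the SD as a percentage of the mean) within a group was 10.4% for the 6 copies and 11.6% for their mitochondrial genes, and 4.17% for their sums. None of the 6 copies passed the test in any comparison, with log2 fold changes between M and the female groups from -0.19 to 0.40. Of the 15 tested mt- genes, 1 was higher and 1 lower in D21-ovx than in M, and none changed in the other comparisons.

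**Figure D2:**
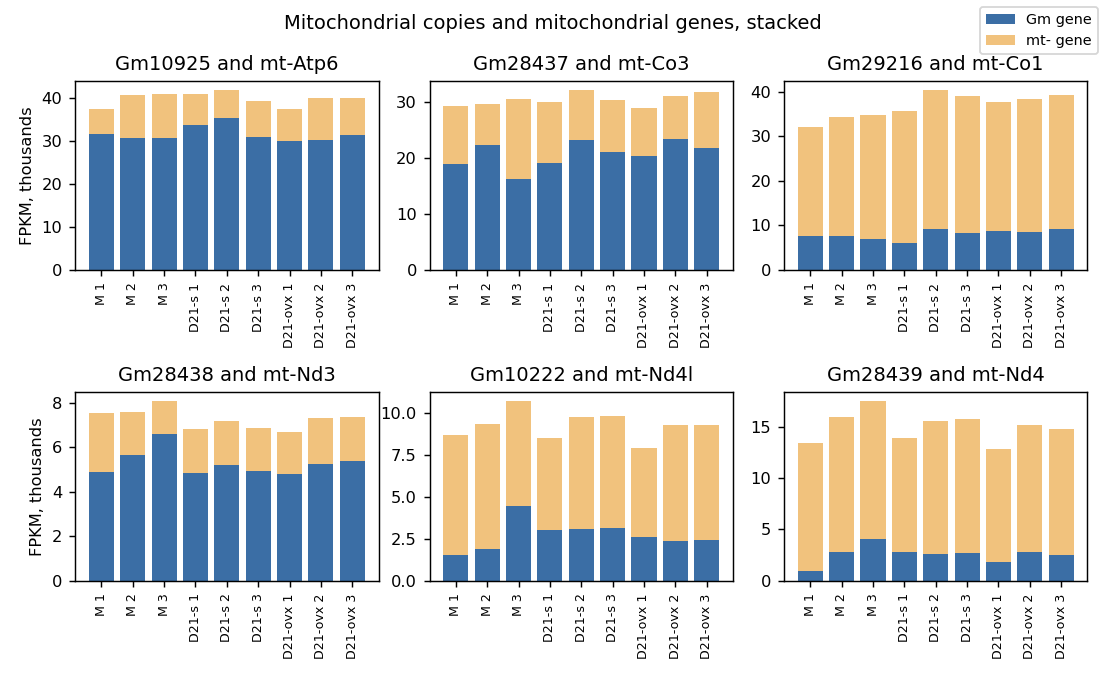
FPKM, in units of 1000, of each mitochondrial copy (blue) and its mitochondrial gene (tan), stacked, in each of the 9 libraries named on the x axis. The boundary moves between libraries, for example from 960.8 to 4031 FPKM of Gm28439 within M, while the total heights differ less.

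Differences between the groups were tested with limma on log2(FPKM + 1), with Benjamini-Hochberg adjustment over the 13160 genes that had at least 1 FPKM in at least 3 libraries. A gene is said to have risen, fallen or changed where its adjusted p was under 0.05, and fold changes on this scale understate those of low genes. All 160 Gm genes were tested. The 3 comparisons share libraries, so their results are not independent of each other.

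Of the 160 genes, 12 changed between D21-s and M, and 9.15% of all genes tested did. They were 7 that were higher in D21-s and 5 that were lower, beside 4.28% and 4.87% of all genes. Scaling moved that split, to 13 higher and 5 lower with median-ratio scaling and to 11 and 5 with quantile normalization. The split over all genes moved the same way, from 563 higher and 641 lower to 845 and 471 with median-ratio scaling and to 695 and 471 with quantile normalization. At least a 2-fold change was seen in 8 of the 160, and in 1.95% of all genes, which include genes down to the filter of 1 FPKM. Among these 8, Gm10639, Gm49366 and Gm16010 had an M mean under 10 FPKM. They were kept through the females, a choice that favours rises. Gm10681 and Gm4450 are near-identical, so they are not separate results. The median log2 fold change was -0.01 for the 160 genes and -0.09 for all genes tested. At an unadjusted p under 0.05 there were 43 of the 160 and 26.6% of all genes. The D21-s libraries lay wholly above those of M in 20 Gm genes and wholly below in 19, beside 9.66% and 20.6% of all genes. Without M replicate 1 the number of changed Gm genes rose to 22.

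Between D21-ovx and M 24 of the 160 genes changed, and 11.8% of all genes tested did. Of these 13 were higher in D21-ovx and 11 lower, beside 5.63% and 6.19% of all genes. The split became 21 higher and 6 lower with median-ratio scaling and 18 and 6 with quantile normalization, while that over all genes went from 741 higher and 814 lower to 1024 and 490 and to 767 and 536. The 2-fold mark was passed by 7, beside 2.24% of all genes, and Gm10639, Gm49366 and Gm16010, kept through the females, were again among them. The medians were 0.05 for the 160 genes and -0.09 for all. At an unadjusted p under 0.05 there were 44 of the 160 and 28.6% of all genes. The D21-ovx libraries lay wholly above those of M in 29 Gm genes and wholly below in 14, beside 10.9% and 23.2% of all genes. Without M replicate 3 the number fell to 13 and without D21-ovx replicate 2 to 15. Both comparisons with M called 9 genes, all in the same direction, and 27 of the 160 were called in at least 1 of them, beside 14.2% of all genes tested.

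The largest difference among the 160 genes was that of Gm10639 (ENSMUSG00000074179), a protein-coding gene of 8 exons in its longest transcript at chr9:78289923-78305525 on the plus strand, beside the alpha-class glutathione transferases. These enzymes join glutathione to reactive compounds and are abundant in liver and kidney. Gm10639 was 5.86, 3.46 and 4.77 FPKM in M, 46.59, 49.59 and 52.04 FPKM in D21-s and 54.04, 53.01 and 57.20 FPKM in D21-ovx. Every female library was above every M library. The log2 fold change was 3.17 (SE 0.14) in D21-s (limma adjusted p = 1.59e-06) and 3.31 in D21-ovx (adjusted p = 9.42e-07). Its mean in M was 4.70 FPKM, so it met the level of 10 FPKM through the females.

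Gsta2, its closest named relative, rose as well but by less. Gsta2 was 210.3 to 328.3 FPKM in M, 938.9 to 1053 FPKM in D21-s and 1150 to 1219 FPKM in D21-ovx, with log2 fold changes of 1.85 and 2.13 against M (limma adjusted p = 5.91e-05 and 1.94e-05). The level of Gm10639 was 1.45% to 2.07% of that of Gsta2 in M and 4.61% to 5.28% in the females, and these ranges did not overlap. Summed with Gsta2, the log2 fold change was 1.90 in D21-s and 2.17 in D21-ovx. Gsta1, Gsta3 and Gsta4, of the same class, rose in both female groups, and of the 22 tested Gst-named genes 10 rose and 0 fell in D21-s and 12 rose and 0 fell in D21-ovx.

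The genes whose levels followed Gm10639 most closely over the 9 libraries were Cpn1 (carboxypeptidase N subunit, Pearson r 0.996), Slc22a29 (an organic anion transporter family member, r 0.995) and Xist (r 0.995). These values describe a step between the sexes that all 4 genes share, with no test.

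Gm10681 (ENSMUSG00000095388, chr3:98552542-98588807, minus strand) and Gm4450 (ENSMUSG00000090817, chr3:98445675-98457126, minus strand) are protein-coding genes in the cluster of 3-beta-hydroxysteroid dehydrogenases, enzymes that convert steroid precursors. RefSeq gives Hsd3b4 as another name for Gm10681. Gm10681 was 27.22, 78.29 and 94.77 FPKM in M, 296.8, 330.3 and 254.2 FPKM in D21-s and 118.5, 192.9 and 107.6 FPKM in D21-ovx. The D21-s libraries were above all others, and those of D21-ovx lay between the other groups. The log2 fold change in D21-s against M was 2.29 (SE 0.41, limma adjusted p = 0.00931). In D21-ovx it was 1.18 against M (adjusted p = 0.0946) and -1.11 against D21-s (adjusted p = 0.690), which did not pass.

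Gm4450 followed the same order, with 19.83, 50.53 and 51.72 FPKM in M, 113.5, 128.3 and 110.6 FPKM in D21-s and 44.40, 82.68 and 45.92 FPKM in D21-ovx. The D21-s libraries stood above the rest, while M and D21-ovx overlapped. It rose by a log2 fold change of 1.62 in D21-s against M (limma adjusted p = 0.0232), a call that was lost with no filter on low genes (adjusted p = 0.0728), without D21-s replicate 2 (0.0840) or without D21-s replicate 3 (0.0566). In D21-ovx against M the value was 0.55 (adjusted p = 0.332).

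Hsd3b4 carried nearly the same values as Gm10681, which was 105% to 117% of it in every library. Hsd3b4 rose by 2.27 in D21-s against M on the log2 scale (limma adjusted p = 0.0138). The summed level of Hsd3b4, Gm10681 and Gm4450 averaged 170.1 FPKM in M, 676.3 FPKM in D21-s and 325.0 FPKM in D21-ovx. A neighbour of the same family moved the other way, since Hsd3b2 was 65.44 to 94.41 FPKM in M, 33.73 to 43.75 FPKM in D21-s and 25.61 to 26.12 FPKM in D21-ovx. It fell by 0.93 and 1.5 on the log2 scale in D21-s and D21-ovx against M (limma adjusted p = 0.00349 and 0.000163). Hsd3b3 had another pattern, with 37.69 to 45.37 FPKM in M, 46.27 to 65.43 FPKM in D21-s and 63.20 to 92.62 FPKM in D21-ovx. It rose in D21-ovx against M by 0.88 on the log2 scale (adjusted p = 0.00751), while 0.40 in D21-s did not pass (adjusted p = 0.149).

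The promoter of Gm10681 is shown as a description, since that of Gm4450 is nearly the same. Reads of these near-identical genes are divided by an estimate, so their shared pattern is in part built in. Any part of the promoter in it was not tested. The window covers the 250 bases before the RefSeq start of Gm10681, chr3:98564010-98564259 on the minus strand of GRCm38.p6, and capitals mark the motifs found. GENCODE M21 starts this gene further upstream, so the window lies inside the span given above for Gm10681.
Gm10681 promoter: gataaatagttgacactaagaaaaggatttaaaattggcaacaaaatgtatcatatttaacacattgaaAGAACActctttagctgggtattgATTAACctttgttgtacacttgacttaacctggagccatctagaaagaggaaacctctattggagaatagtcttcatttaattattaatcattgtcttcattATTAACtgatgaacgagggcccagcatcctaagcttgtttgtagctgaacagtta
The same window of Gm4450 aligned over 221 bases with 3 mismatches. Both strands were searched for 4 short motifs. TGTTCT, a hexamer of steroid receptor sites such as those of the androgen and glucocorticoid receptors, was present in both promoters on the reverse strand and in 16.1% of 32851 RefSeq promoter windows of this length. GTTAAT, a hexamer of HNF1 sites, occurred at 2 places in both, also on the reverse strand, and in 6.43% of all windows. TGACNNNGC, the core of the antioxidant response element, and AGGTCA, a nuclear receptor hexamer, were not in these windows, and occurred in 10.2% and 14.0% of all. The same window of Gm10639 (chr9:78289678-78289927, plus strand) held none of the 4 motifs. A match of letters is a description and shows no binding.

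Gm49366 (ENSMUSG00000113475, chr12:84038935-84058613, plus strand) is annotated as protein coding and shares 92.3% of its exonic bases with Acot3, a peroxisomal thioesterase that releases fatty acids from coenzyme A. It was 3.84, 3.13 and 2.03 FPKM in M, 10.47, 19.83 and 20.26 FPKM in D21-s and 16.64, 15.66 and 15.14 FPKM in D21-ovx. No female library overlapped M, and the mean in M, 3.00 FPKM, was under the level of 10 FPKM. The log2 fold changes against M were 2.13 (SE 0.24, limma adjusted p = 0.000758) and 2.10 (adjusted p = 0.000630). Acot3 itself rose by 2.35 and 2.25 (adjusted p = 6.29e-06 and 7.55e-06), and the level of Gm49366 was 22.9% to 54.5% of that of Acot3. Acot1, Acot2 and Acot4 rose in both female groups too, while Acot6 had log2 fold changes of 0.09 and -0.05.

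Among the 24 genes whose exons overlap a gene on the opposite strand, 2 rose in the females against M, and both did so in D21-s and in D21-ovx. Of all genes tested 4.28% and 5.63% rose in these comparisons. In D21-ovx against M 1 of the 24 fell, beside 6.19% of all genes. The libraries were made with a directional kit, but whether the counting used the strand is not given in the sources used here, and without that reads of a gene and its antisense partner cannot be told apart. Gm16010 (ENSMUSG00000085541, chr9:97015966-97022043, plus strand) is an antisense RNA with 13.8% of its exonic bases opposite Spsb4, a gene for a ubiquitin ligase adaptor. It was 6.02, 5.26 and 8.95 FPKM in M, 27.08, 19.49 and 37.23 FPKM in D21-s and 21.40, 17.94 and 25.09 FPKM in D21-ovx. The groups of females lay wholly above M, whose mean of 6.74 FPKM was under 10 FPKM. The log2 fold change was 1.88 in D21-s (SE 0.24, limma adjusted p = 0.00153) and 1.55 in D21-ovx (adjusted p = 0.00356), beside 0.22 (adjusted p = 0.298) and 0.49 (adjusted p = 0.0416) for Spsb4.

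Gm4524, with 49.0% of its exonic bases opposite the collagen prolyl 3-hydroxylase gene P3h2, rose from 11.2 ± 0.8 FPKM in M to 17.3 ± 2.5 FPKM in D21-s and 16.8 ± 1.1 FPKM in D21-ovx (mean ± SD, n = 3 each, limma adjusted p = 0.0138 and 0.0137 against M). P3h2 rose at the same time, by 0.50 and 0.41 on the log2 scale (adjusted p = 0.00856 and 0.0166). Gm4524, and the genes named from here on that changed by less than 2-fold, were picked after their values were seen.

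**Figure D3:**
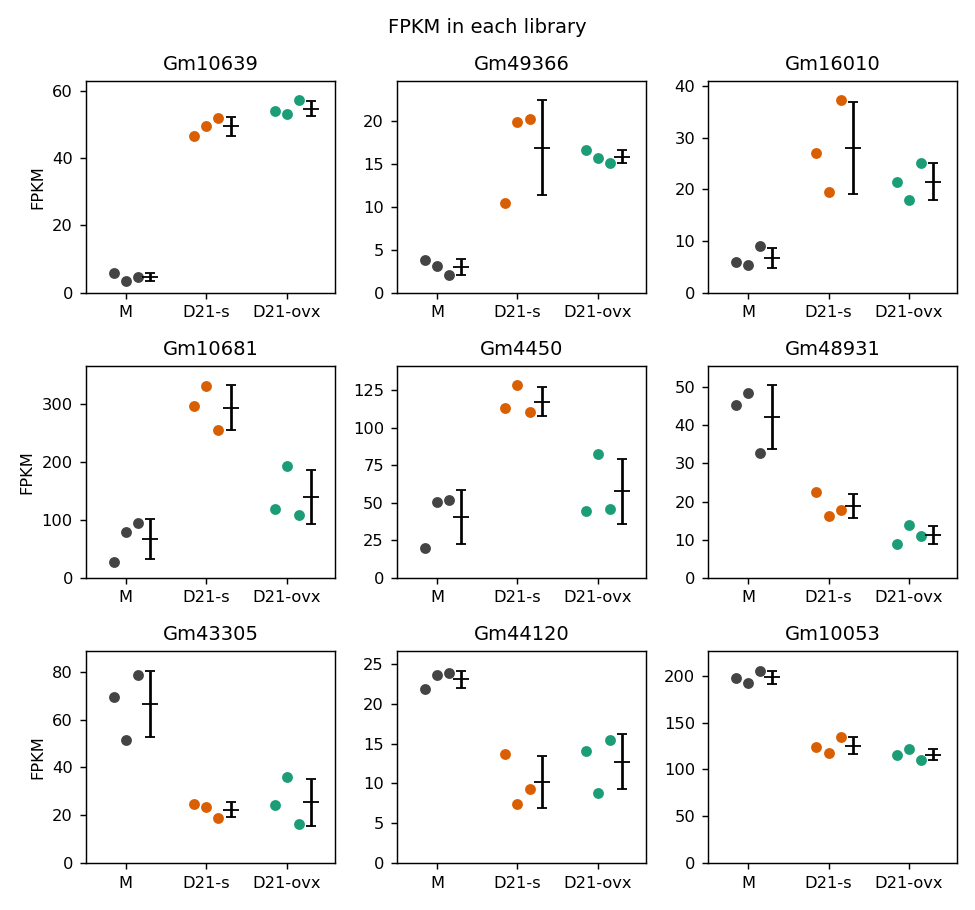
FPKM of 9 Gm-numbered genes in each library, 1 coloured point a library and 3 libraries a group, with the mean and SD in black beside them; every axis starts at 0. Gm10639, Gm49366 and Gm16010 are higher in both female groups, Gm10681 and Gm4450 are highest in D21-s, and Gm48931, Gm43305, Gm44120 and Gm10053 are lower in both female groups.

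Gm48931 (ENSMUSG00000115458, chr14:75841486-75841714, plus strand) had the largest fall against M among the 160 genes in D21-ovx. The pseudogene was 45.42, 48.40 and 32.79 FPKM in M, 22.51, 16.25 and 17.83 FPKM in D21-s and 8.93, 13.80 and 10.99 FPKM in D21-ovx. The 3 groups did not overlap. The log2 fold change was -1.11 in D21-s (SE 0.19, limma adjusted p = 0.00700) and -1.82 in D21-ovx (adjusted p = 0.000324) against M. Acy3 fell with it, from 651.3 to 882.5 FPKM in M to 276.6 to 293.5 FPKM in D21-s and 196.9 to 242.8 FPKM in D21-ovx, with log2 fold changes of -1.37 and -1.75 (adjusted p = 0.000108 and 1.94e-05). The copy was 3.68% to 7.67% of Acy3 over the 9 libraries, and those of M and the females overlapped in this share.

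Gm10053 (ENSMUSG00000058927, chr19:24875686-24876631, plus strand) has a single exon and is annotated as protein coding. Over the 315 coding bases aligned with Cycs, the gene of cytochrome c, it had 0 mismatches. It was 198.3, 192.2 and 205.9 FPKM in M, 124.5, 117.2 and 135.1 FPKM in D21-s and 115.7, 121.9 and 110.4 FPKM in D21-ovx. M stood apart from both female groups, with log2 fold changes of -0.66 (SE 0.07, limma adjusted p = 0.000427) and -0.77 (adjusted p = 0.000122). Cycs fell by 0.68 and 0.62 on that scale (adjusted p = 0.000746 and 0.000955), and the copy was 53.9% to 68.9% of its level.

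Other genes that fell had no near-identical relative. Gm43305 (ENSMUSG00000105703) is a processed transcript at chr14:54292443-54297456 on the minus strand. Its annotated exons merge into a single one, and its longest transcript has 4901 bases. It lies 21806 bases from the nearest gene with at least 1 FPKM, Abhd4. It was 69.65, 51.70 and 78.97 FPKM in M, 24.80, 23.48 and 18.70 FPKM in D21-s and 24.41, 35.82 and 16.16 FPKM in D21-ovx. All females were below all M libraries. The log2 fold change against M was -1.53 in D21-s (SE 0.26, limma adjusted p = 0.00705) and -1.40 in D21-ovx (adjusted p = 0.00851). Abhd4, an enzyme of N-acyl phospholipid metabolism, had -0.08 and -0.22 (adjusted p = 0.544 and 0.0913).

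Gm44120 (ENSMUSG00000108290) lies at chr6:129522562-129525584 on the plus strand, 3335 bases beyond the end of Tmem52b on the same strand. It was 21.92, 23.61 and 23.90 FPKM in M, 13.77, 7.47 and 9.24 FPKM in D21-s and 14.07, 8.79 and 15.43 FPKM in D21-ovx, with no overlap between M and the females. The log2 fold change was -1.15 in D21-s against M (limma adjusted p = 0.0151) and -0.84 in D21-ovx (adjusted p = 0.0436). The first call was lost with no filter on low genes (adjusted p = 0.0503), without M replicate 2 (0.0543), M replicate 3 (0.0571) or D21-s replicate 2 (0.0583), and the second under 11 of 19 alternatives (adjusted p up to 0.122). Tmem52b had log2 fold changes of -1.25 (adjusted p = 0.0180) and -0.88 (adjusted p = 0.0557), and Gm44120 was 7.51% to 10.6% of its level in every library.

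Gm32461 (ENSMUSG00000116993), a lincRNA of 7 exons at chr16:86770227-86806513 on the minus strand, had its nearest gene with at least 1 FPKM 547672 bases away. It was 35.90, 31.67 and 50.05 FPKM in M, 21.89, 16.46 and 30.28 FPKM in D21-s and 18.12, 13.92 and 22.62 FPKM in D21-ovx. Both female groups lay below M. The log2 fold change of -1.06 in D21-ovx passed (limma adjusted p = 0.0250), while -0.77 in D21-s did not (adjusted p = 0.0882), except with the replicate block (adjusted p = 0.00134). That block also joins M to the females by replicate number, although the numbers of M did not pair with theirs. The call in D21-ovx was lost under 4 of 19 alternatives, with adjusted p of 0.0835 without M replicate 3, 0.0632 without D21-ovx replicate 1 and 0.0914 without D21-ovx replicate 2.

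Markers of distal segments moved in the same libraries, and so did others. Of the 10 proximal tubule markers 6 rose in D21-s and 5 in D21-ovx against M, and 0 fell. Endothelial sums were 113.46 to 204.08 FPKM in M, 30.24 to 112.79 FPKM in D21-s and 62.72 to 106.29 FPKM in D21-ovx, so both female groups lay below M, D21-s only narrowly. Podocyte sums were 166 to 237 FPKM, 33.8 to 215 FPKM and 63.1 to 183 FPKM. Stromal, immune and red cell sums overlapped between the groups, and no marker of these non-tubule types was called. The 4 distal convoluted tubule markers summed to 565 to 811 FPKM in M, 212 to 467 FPKM in D21-s and 297 to 471 FPKM in D21-ovx, and 2 of them fell in D21-s against M. The 5 principal cell markers summed to 227 to 318 FPKM, 121 to 185 FPKM and 139 to 210 FPKM in the same order, and 2 fell in each female group. The 5 intercalated cell markers summed to 75.6 to 115 FPKM, 29.9 to 57.3 FPKM and 38.4 to 69.0 FPKM, and 2 fell in D21-s and 1 in D21-ovx. None of these markers was listed at 0 in all libraries, and their part in the results for Gm43305, Gm44120 and Gm32461 was not tested. Gm44588, which lies opposite Umod, the uromodulin gene of the thick ascending limb, did not pass in D21-s (log2 fold change -0.92, limma adjusted p = 0.0900) or D21-ovx (-0.90, adjusted p = 0.0846), and was 4.10% to 5.86% of Umod in every library.

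Called genes and their relatives could be set side by side. Of the 12 genes called in D21-s against M, 8 had a relative, and in all 8 the relative was called in the same direction. These are not 8 separate agreements, since Gm10681 and Gm4450 have the same relative, Hsd3b4, and Gm49366 shares exons with Acot3. Reads of near-identical sequences are divided between them by an estimate, so agreement is in part built in. Of the 24 called in D21-ovx against M, 17 had a relative, and 12 of these relatives were called in the same direction, 0 in the other and 5 not at all. In an alternative chosen after seeing the data, each gene with a relative was summed with it before the test. Genes without one stayed unsummed. Of the 160 rows 27 then changed in D21-s against M (16 higher, 11 lower) and 47 in D21-ovx against M (34 higher, 13 lower). In the main fit 9.15% and 11.8% of all genes changed. In 36 of the 140 pairs the mean of the relative was at least 10 times that of the Gm gene. Such sums mostly repeat the relative, and a relative shared by several Gm genes entered each of their sums. All these counts include relatives at the same locus, whose exons the Gm gene shares or lies opposite to.

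**Figure D4:**
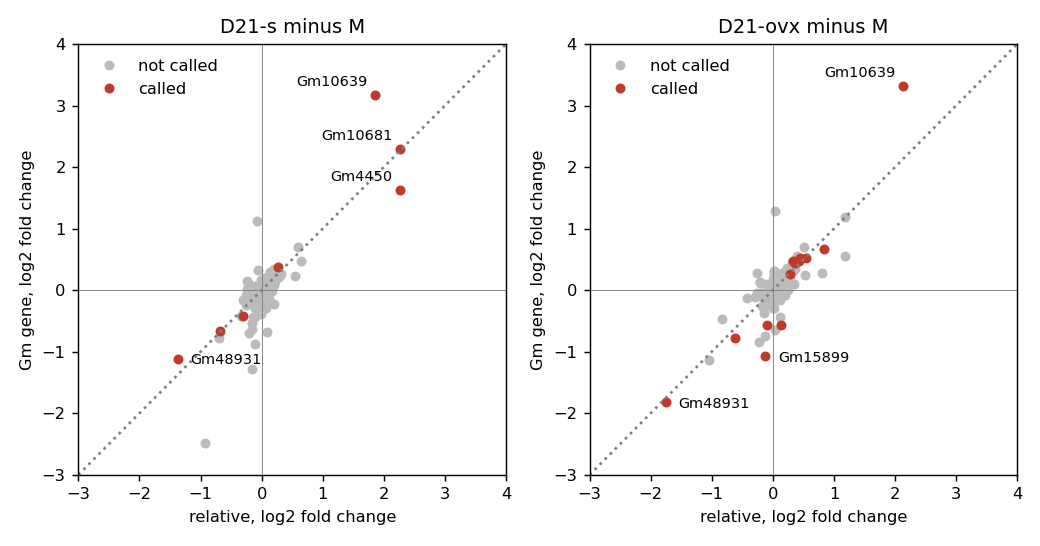
Log2 fold change against M of each of the 104 Gm genes with a near-identical relative elsewhere (y axis) and of that relative (x axis), in D21-s and in D21-ovx; red points are Gm genes that passed the test and the dotted line marks equal changes. Gm10639 lies above the line at 3.17 and 3.31 beside 1.85 and 2.13 for Gsta2, and Gm15899 is at -1.08 in D21-ovx beside -0.12 for its relative Actr3.

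The closest relative of 26 genes was a ribosomal protein gene, and these copies had a median log2 fold change of 0.23 in D21-ovx against M, with 25 of 26 above 0. The median over all genes tested was -0.09. Of these copies 4 rose and 0 fell in D21-ovx against M, beside 5.63% and 6.19% of all genes, and 1 was called in D21-s, beside 9.15%. The 26 copies have 25 distinct relatives, and for 17 copies the relative was called higher in D21-ovx. Reads are divided between copy and relative, so the copies are not independent of them. Among the 82 tested cytosolic ribosomal protein genes themselves 53 rose and 1 fell in D21-ovx against M, with a median of 0.26, and 3 rose and 1 fell in D21-s. The within-group CV had a median of 9.95% in the copies and 3.89% in their relatives.

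Gm15500, a copy of the large-subunit gene Rpl5, is an example at a moderate level. It was 96.09, 94.75 and 101.0 FPKM in M, 105.5, 104.9 and 114.7 FPKM in D21-s and 143.8, 126.4 and 126.4 FPKM in D21-ovx. All 3 groups were apart in their ranges. Its log2 fold change of 0.44 in D21-ovx against M passed (limma adjusted p = 0.00394), as did that of Rpl5, 0.36 (adjusted p = 0.0164). Gm9616, a copy of the small-subunit gene Rps4x, rose in both female groups, by 0.37 (adjusted p = 0.0215) and 0.53 (adjusted p = 0.00286). Gm13456, a copy of the elongation factor gene Eef1a1, rose by 0.48 in D21-ovx (adjusted p = 0.00406), and Eef1a1 by 0.42 (adjusted p = 0.000490).

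Copies of 3 metabolic genes rose in D21-ovx against M together with their parents. Gm49011 copies 171 bases of Sardh, the gene of sarcosine dehydrogenase, and went from 60.9 ± 12.8 FPKM in M to 95.8 ± 8.6 FPKM (limma adjusted p = 0.0273). Gm6652 copies Sord, the gene of sorbitol dehydrogenase, and went from 117.3 ± 10.7 FPKM to 162.7 ± 8.9 FPKM (adjusted p = 0.00955). Gm4737 copies Ahcy, the gene of adenosylhomocysteinase, and went from 10.3 ± 1.3 FPKM to 15.2 ± 1.0 FPKM (adjusted p = 0.00851, mean ± SD, n = 3 in each case). The 3 parents rose by 0.83, 0.33 and 0.55 on the log2 scale (adjusted p = 0.000445, 0.0280 and 0.00160). Gm5424, a copy of the argininosuccinate synthase gene Ass1 with a mean of 218.8 FPKM, had log2 fold changes of 0.05 and -0.05 against M, and of the 2 tested urea cycle genes 0 changed.

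In 5 genes that fell in D21-ovx against M the relative was not called. Gm15899 (chr8:122683602-122683839, minus strand) is 100% identical to 238 bases of Actr3, the gene of an actin-nucleating protein. It was 33.21, 40.23 and 53.00 FPKM in M, 34.67, 25.09 and 25.71 FPKM in D21-s and 19.61, 25.22 and 14.07 FPKM in D21-ovx, with M and D21-s overlapping and D21-ovx below M. The log2 fold change of -1.08 in D21-ovx (limma adjusted p = 0.0163) stood beside -0.12 for Actr3 (adjusted p = 0.217). The sum of both fell by 0.44 on that scale (adjusted p = 0.0180). The call of Gm15899 was lost with no filter on low genes (adjusted p = 0.0501), without M replicate 3 (adjusted p = 0.0581) or D21-ovx replicate 3 (adjusted p = 0.0514).

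Gm8186, 100% identical to 231 bases of the small ribonucleoprotein gene Snrpg, was 20.03 to 23.80 FPKM in M, 20.51 to 25.19 FPKM in D21-s and 12.57 to 16.93 FPKM in D21-ovx. It fell by 0.57 in D21-ovx against M on the log2 scale (limma adjusted p = 0.0165), while Snrpg had 0.13 (adjusted p = 0.472) and their sum -0.11 (adjusted p = 0.392). The call was lost without M replicate 3, D21-ovx replicate 2 or D21-ovx replicate 3 (adjusted p from 0.0633 to 0.0646). Gm37335, opposite the heparan sulfate sulfotransferase gene Hs6st1, fell by 0.51 (adjusted p = 0.0359), a call lost under 12 of 19 alternatives, among them without any of the M replicates. Gm6055, a copy of the autophagy gene Map1lc3b, and Gm20716, which shares 83.1% of its exonic bases with Adnp, fell by 0.57 and 0.27 (adjusted p = 0.0423 and 0.0347).

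None of the 160 genes changed between D21-ovx and D21-s, and 0.0076% of all genes tested did. The smallest adjusted p (limma) among the 160 was 0.159. At an unadjusted p under 0.05 there were 21 of the 160, with 12 higher and 9 lower in D21-ovx, and 6.29% of all genes. With the replicate block fitted to the female groups alone these became 40 of the 160 and 1610 of 13160 genes, from 828, and still none of the 160 passed after adjustment. The libraries of D21-ovx lay wholly above those of D21-s in 20 genes and wholly below in 11, beside 6.76% and 6.09% of all genes. The 5 smallest p-values were those of Gm8186 (log2 fold change -0.64), Gm15500 (0.28), Gm37335 (-0.57), Gm48931 (-0.71) and Gm13456 (0.27), with adjusted p of 0.159, 0.338, 0.272, 0.427 and 0.486. The largest log2 fold change was 1.35 for Gm3788, with an SE of 0.75 and an adjusted p of 0.888.

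The level of a near-identical copy varied more within a group than that of its relative. In the 104 genes of that class the median within-group CV was 13.1%, against 6.00% for the relatives and 6.15% for the sums, and it was higher in the Gm gene than in its relative in 91 of 104. The mean of the relative was at least 10 times that of the Gm gene in 34 of these pairs, and a lower level itself goes with a larger CV, whose part was not tested.

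**Figure D5:**
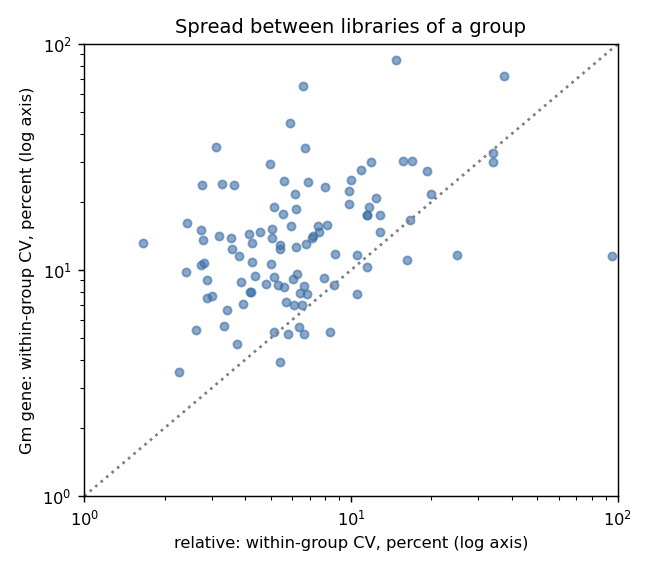
Within-group CV in percent of the 104 Gm genes with a near-identical relative elsewhere (y axis) and of that relative (x axis), on log axes, 1 point a pair; the dotted line marks equal spread. Most points, 91 of 104, lie above the line.

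The extremes were copies that were listed at 0 in 1 library and well measured in another of the same group. Gm14567, 100% identical to 174 bases of the RNA polymerase subunit gene Polr2k, was 17.95, 28.21 and 0 FPKM in M, 31.65, 4.56 and 30.58 FPKM in D21-s and 27.21, 14.40 and 17.67 FPKM in D21-ovx. Gm6361, identical to 435 bases of the ubiquitin-conjugating enzyme gene Ube2v2, was 14.07, 2.42 and 22.48 FPKM in M, 0.2, 12.16 and 17.39 FPKM in D21-s and 18.04, 0 and 15.64 FPKM in D21-ovx. In both genes all 3 groups overlapped. Polr2k stayed between 35.54 and 46.28 FPKM and Ube2v2 between 10.84 and 17.41 FPKM. In the library where Gm14567 was at 0 Polr2k was 44.32 FPKM, and where Gm6361 was at 0 Ube2v2 was 17.41 FPKM, its highest value.

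Gm3788, a copy of the thymosin gene Tmsb10, was 15.00, 25.27 and 15.08 FPKM in M, 8.76, 2.90 and 0 FPKM in D21-s and 15.39, 7.86 and 3.33 FPKM in D21-ovx. It met the level used to choose the genes through M, a choice that favours falls. Its log2 fold change of -2.49 in D21-s against M had an SE of 0.75 and did not pass (limma adjusted p = 0.0726), except with the replicate block (adjusted p = 0.0322) or without D21-s replicate 1 (0.0203). The block here too includes M, whose replicate numbers did not pair with those of the females. Tmsb10 was 27.97 to 38 FPKM in M and 27.81, 17.15 and 9.32 FPKM in D21-s, so that only the last 2 of these D21-s libraries lay well below M. Most like Gm3788 over the 9 libraries were Trp53bp2 (Pearson r 0.985), Gm50475 (0.961) and Syne1 (0.960). Gm28901, a lincRNA opposite the Hnrnpf copy Gm6430, was 3.99, 28.14 and 45.04 FPKM in M and 9.15 to 11.23 FPKM in D21-s.

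Some values belong to loci rather than to single genes. Gm2007 and Gm11007 have an identical transcript of 1497 bases and identical values in all 9 libraries, from 8.1 to 15.31 FPKM, so they are a single measurement listed under both names. Gm47283 is annotated on chromosome Y, at chrY:90784738-90816464, and was 37.46 to 57.58 FPKM in M and 47.57 to 66.88 FPKM in the females. It is 98.5% identical over 57.3% of its length to Erdr1, a gene of the pseudoautosomal region that both sex chromosomes carry. Gm26377, a miRNA of 108 bases by annotation, lies wholly inside an exon of Eef1a1, and its 775.1 to 1101 FPKM were 33.4% to 44.2% of the level of Eef1a1. Gm37376, at 155.8 to 266.2 FPKM, lies wholly opposite Malat1.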

How the data were processed

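RNA of prominin-1-positive kidney cortex cells was sequenced in 9 libraries, 3 each of M, D21-s and D21-ovx. The authors deposited 1 table of FPKM per gene for these libraries; STAR 2.6.0c and RSEM are named in the submitters' processing notes, and none of the sources used here gives the build or the annotation. No counts were used. The Gm genes and the gene lists were chosen with earlier results of these data known, and the genes named in the text follow a rule on size of change, level, closeness to the threshold and spread within a group, with exceptions marked where they occur.

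Each gene ID was matched to GENCODE M21 (GRCm38), and transcripts were compared with BLAST 2.17.0 (identity of at least 90% over at least 50% of the length, the best hit that is not itself a Gm gene being the relative). Promoters came from RefSeq (GRCm38.p6), with entries for 18 of the 160 genes. limma 3.58.1 (R 4.3.3) fitted log2(FPKM + 1) of all 9 libraries with a mean per group, a variance trend and no covariate; genes with at least 1 FPKM in at least 3 libraries were tested two-sided with Benjamini-Hochberg adjustment, called under 0.05. The fit was tested on simulated data with known changes. The libraries are labelled as biological replicates, and p-values measure the spread between them only.

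Replicate numbers were treated as pairs only where deviations from the group means correlated above 0.1 in every pair. The sample labels state no pairing. Same-numbered D21-s and D21-ovx libraries had r of 0.35, 0.17 and 0.29 across genes, so their numbers were treated as pairs, which does not show a true pairing. Differently numbered libraries of these groups had r from -0.33 to 0.05. Deviations within a group cancel in each gene, so this contrast is in part built in. Same-numbered M with D21-s had -0.13, 0.14 and 0.28 and M with D21-ovx -0.03, 0.02 and 0.07, so M was not taken as paired. M replicate 2 with D21-s replicate 1, which differ in number, also reached 0.28. The main fit did not use the pairs, which entered only through the replicate block. Alternatives were other pseudocounts, no filter, other scalings, fits of 2 groups, no variance trend, a replicate block, other levels for the choice of genes, and leaving out each library.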

Additional observations from a re-analysis of the deposited data

How the results depend on the processing

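For D21-s against M the number of Gm genes called was 12. It was 27 when genes with a relative were summed with it and the others left unsummed. It was 23 among the 285 genes with a mean of at least 5 FPKM and 7 among the 88 with at least 20 FPKM. Leaving out 1 library gave 8 to 22. For D21-ovx against M it was 24. The same summing gave 47, the level of 20 FPKM gave 11, and leaving out 1 library gave 13 to 25. For D21-ovx against D21-s it was 0 under every alternative. Over all genes, D21-s against M gave 1204 calls, 739 with no filter, 722 with the 2 groups fitted alone and 570 to 1635 leaving out 1 library; D21-ovx against M gave 1555, and 877 to 1698 leaving out 1 library. D21-ovx against D21-s gave 1 call over all genes, 2 with no filter or with scaling on the sum without mitochondrial genes and Gm copies, 0 with median-ratio scaling or quantile normalization, 9 with the 2 groups fitted alone, 3 with no variance trend and 0 to 11 leaving out 1 library. With the replicate block there were 15 Gm genes called for D21-s against M, 26 for D21-ovx against M and 0 for D21-ovx against D21-s, with 0 calls over all genes in the last, and 6 when the block was fitted to the female groups alone, a fit added after seeing the data; none of the named calls was lost under the block, and Gm32461 and Gm3788 in D21-s against M and Gm20659 in D21-ovx against M (adjusted p = 0.0375) gained one. The block over all libraries joins M to the females by number, although M did not pair with them, so the calls gained against M carry that limit. The near-identical relatives, with those at the same locus included, numbered 140, and 141 and 128 under a looser and a stricter match. Over the named genes and alternatives 1578 fold changes kept their direction and side of the threshold, 41 lost a call, 17 gained one and 46 that were not called changed sign; none of the called ones did. Gm10639, Gm49366, Gm16010, Gm43305 and Gm48931 kept their calls against M in both female groups in all 19 alternatives, and Gm10681 in D21-s. Without M replicate 3 Gm10222 was called higher in D21-s (log2 fold change 0.86) and D21-ovx (0.53), and without M replicate 1 Gm28901 was called lower (-1.73 and -1.02); the cause was not tested. With FPKM alone the reads behind a low gene are unknown, which limits what the copies can show.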

Other observations

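Of the 13 Gm genes that had no near-identical relative and shared too few exonic bases with another gene to be placed beside it, 5 were called in at least 1 comparison with M, beside 14.2% of all genes tested. Beside Gm43305, Gm44120 and Gm32461 these were Gm53 and Gm48558, both lincRNAs and both picked after their values were seen. Gm53, which ends 296 bases from Mir196a-1 on the same strand, was 10.10, 10.75 and 11.72 FPKM in M and 18.21, 19.78 and 18.56 FPKM in D21-ovx, with no overlap (log2 fold change 0.74, limma adjusted p = 0.0140), and 16.61, 11.69 and 19.35 FPKM in D21-s, which did not pass (0.48, adjusted p = 0.0822). Gm48558 was 12.61, 10.94 and 15.74 FPKM in M and 7.99, 8.11 and 8.90 FPKM in D21-ovx, also with no overlap (-0.58, limma adjusted p = 0.0401), and 9.83, 9.13 and 13.20 FPKM in D21-s, which did not pass (-0.27, adjusted p = 0.292). All D21-ovx values of Gm48558 were under the level used to choose the genes. It was kept through the other groups, a choice that favours falls. Its nearest gene with at least 1 FPKM, Trib2, a pseudokinase gene 25836 bases away on the same strand, fell by 0.77 on the log2 scale (adjusted p = 0.0173).

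The gene of this class with the highest level was Gm19950, an antisense RNA within an intron of Acsm1, a mitochondrial medium-chain acyl-CoA synthetase gene. It was 120.6 to 129.2 FPKM in M, 116.0 to 138.5 FPKM in D21-s and 127.0 to 148.3 FPKM in D21-ovx, and the groups overlapped (log2 fold change 0.01 and 0.14 against M, limma adjusted p = 0.933 and 0.278). Acsm1 rose over the same libraries by 0.78 and 0.84 on the log2 scale (adjusted p = 0.00292 and 0.00145), and Acsm2, of the same family, fell by 0.86 and 1.05 (adjusted p = 0.00136 and 0.000318).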
